A study of Mus musculus with 6 samples.

Results

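Transforming growth factor beta (TGF-beta) acts through a small set of genes, of which 10 were followed here: the ligands Tgfb1, Tgfb2 and Tgfb3, the receptors Tgfbr1, Tgfbr2 and Tgfbr3, and the latent TGF-beta binding proteins Ltbp1, Ltbp2, Ltbp3 and Ltbp4. They were chosen by name, and all 10 were found among the 33697 genes of the count matrices. The cells came from Flare-TSLP mice on the C57BL/6 background, aged 8 to 12 weeks, of both sexes and fed chow, in which tdTomato reports the Tslp locus, so every sample carried the reporter and no library came from wild-type mice. Live tdTomato+ cells of the lamina propria were sorted and captured as 6 single-cell libraries, of which 2 each came from the proximal jejunum and the distal ileum (here the proximal and distal small intestine) and 1 each from cecum and large intestine. Because the sort kept reporter-positive cells, the values describe the sorted cells and not the whole tissue. The paper found tdTomato+ cells with the leukocyte marker CD45 to be rare and only among CD31+ endothelial cells. It found no tdTomato+ epithelial cells in the intestine. Contaminant clusters were removed there by their tdTomato transcripts, a step not taken here. Reporter levels by class are not reported here, so whether the leukocyte-like, glia-like and epithelial-like cells below carried the reporter is not answered. Each library held 3 hashtags, the barcoded antibodies that mark pooled samples. The paper states that at least 3 biological samples were used from each small intestinal tissue, and its methods describe hashtags for multiplexing. A library may thus pool several mice, but nothing in the sources used here says which hashtag was which mouse. Each library was therefore counted as 1 sample, and the p-values measure the spread between libraries, which may be in part technical.

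TGF-beta ligands are secreted in a latent form, in which the mature cytokine stays wrapped in its own propeptide, the latency-associated peptide, and is usually tied to a latent TGF-beta binding protein that anchors it in the extracellular matrix. The cytokine is released by integrins or proteases and then signals through the kinases TGFBR2 and TGFBR1 to SMAD proteins, with TGFBR3 (betaglycan) presenting the ligand as a co-receptor. In the gut the pathway is known for restraining immune responses, for directing IgA production and for driving matrix synthesis by fibroblasts, and mesenchymal cells, endothelial cells and leukocytes all take part in it.

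The ligands differ in how they can be released, and the coding sequences that show this are given first. An Arg-Gly-Asp motif in the latency-associated peptide is the site by which integrins of the alpha-v family bind and activate latent TGF-beta. In the mouse reference (GRCm39) the motif was found once in the canonical coding sequence of Tgfb1, as codons 244 to 246 of 390, and once in that of Tgfb3, as codons 261 to 263 of 412. It was not found in the 414 codons of Tgfb2. The 30 coding bases around the motif of Tgfb1 lie in exon 5 at chr7:25396558-25396587 on the plus strand, and those of Tgfb3 in exon 5 at chr12:86108927-86108956 on the minus strand. The capitals mark the 3 codons of the motif:
Tgfb1: cccaaacgtCGGGGCGACctgggcaccatc
Tgfb3: gaccatggcCGTGGAGACctggggcgtctc
The counts described next come from the 3′ ends of transcripts and carry no information on these coding bases, so levels are compared between cell types and libraries for 1 gene at a time and never between genes.

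The libraries held 109675337 to 206827504 unique molecular identifiers (UMIs, the tags that mark single captured transcripts) on genes. After the filters 91122 cells were used, 10599 to 18351 per library, with medians of 6590 to 9162 UMIs per cell. Cells were sorted into classes by 91 marker genes. None was a member or one of the 46 other pathway genes followed below, though the BMP ligands Bmp3, Bmp5 and Bmp7 were among the markers. Levels are in CPM, where the UMIs of all genes over the cells of 1 class in 1 library were scaled to a total of 1000000. Fibroblast-like cells made up 75.9% of the cells (69171 cells), followed by lymphatic endothelial cell (LEC)-like cells with 14284 cells. Within the fibroblast-like cells the gate found 13329 trophocyte-like cells, 10412 Adamdec1 fibroblast-like cells, 5790 universal fibroblast-like cells, 5148 subepithelial myofibroblast (SEMF)-like cells, 4328 Ptn Scg2 fibroblast-like cells and 4042 telocyte-like cells, of which 3005 were in the large intestine library. The remaining 26122 fibroblast-like cells fell into no subset, and a further 4409 cells fell into no class at all. The smaller classes were blood endothelial-like (1088 cells), B or plasma cell-like (598), muscle-like (537), pericyte-like (391), T cell or ILC-like (279), myeloid-like (183), glia-like (115) and epithelial-like (67). The gated classes carried genes that had not been used to gate them, since Pecam1 averaged 575 CPM in LEC-like cells against 4.60 CPM in SEMF-like cells, Ptprc averaged 1313 CPM in myeloid-like cells and Sox6 averaged 2218 CPM in telocyte-like cells. The paper describes a SEMF cluster that was abundant in cecum and large intestine but not in the small intestine, and how the SEMF-like cells map onto it was not tested. The label SEMF-like did not hold in the same way in all regions. Of its own gating markers, Lrat reached 884 CPM and Frmd5 473 CPM in the small intestine but 1.19 and 4.75 CPM in the cecum and 1.29 and 1.84 CPM in the large intestine, and these values apply to each result that uses SEMF-like cells of the large bowel. Any pair of libraries shared 38 to 118 cell barcodes, at most 0.609% of the smaller library.

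Each member had a different distribution over the classes, and the 3 ligands were highest in 3 different lineages. Means are over the libraries in which a class held at least 20 cells.

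**Figure D1:**
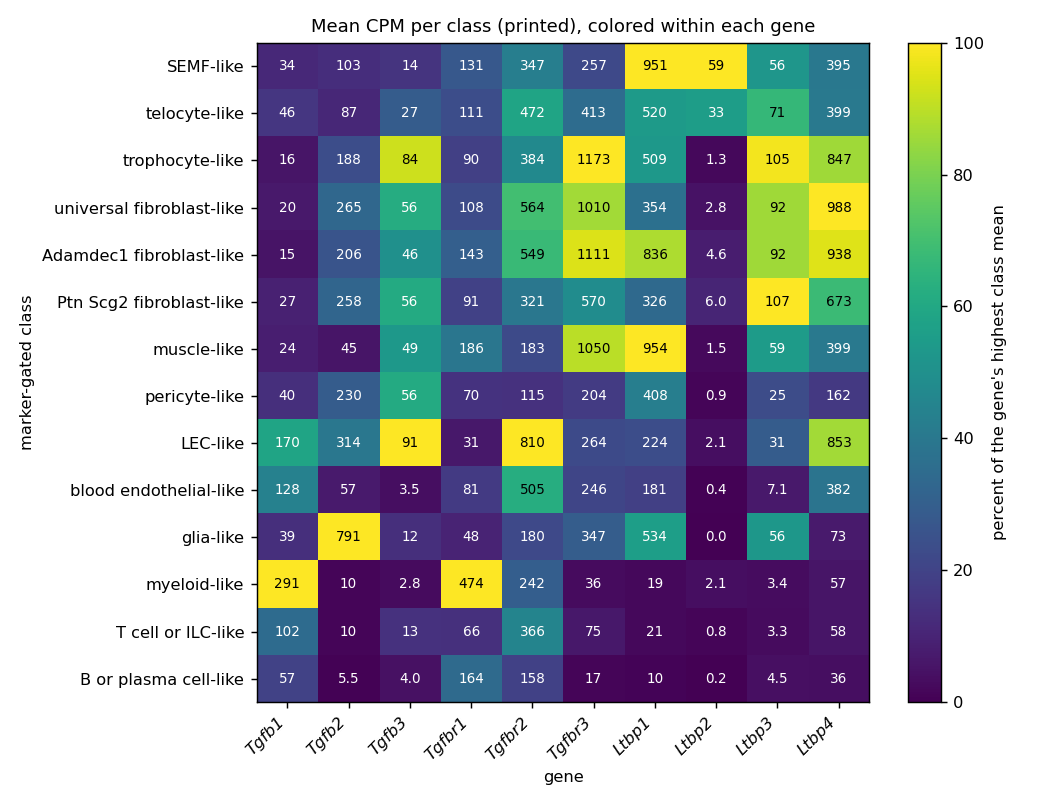
Mean level over libraries of each of the 10 members (columns) in each class (rows), printed in CPM, with color as percent of the gene's highest class mean, so that colors are comparable down a column only. The remaining fibroblast-like cells and the epithelial-like cells are not drawn. Tgfb1 was highest in myeloid-like cells (291 CPM), Tgfb2 in glia-like cells (791 CPM), Tgfb3 in LEC-like (91.4 CPM) and trophocyte-like cells (84.4 CPM), whose libraries overlapped, and Ltbp2 in SEMF-like cells (59.1 CPM).

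Tgfb1, the ligand best known from leukocytes, was highest in myeloid-like cells at 291 ± 38.3 CPM (SD, n = 4), with 275 and 261 CPM in the proximal and 282 and 347 CPM in the distal libraries. LEC-like cells followed with 161, 186, 176, 185, 141 and 168 CPM in the proximal replicates 1 and 2, the distal replicates 1 and 2, the cecum and the large intestine, a mean of 169.7 ± 16.9 CPM (SD, n = 6). The lowest myeloid-like library lay above the highest LEC-like library, so these neighbours did not overlap. Blood endothelial-like cells (128 ± 28.4 CPM, SD, n = 5) and T cell or ILC-like cells (102 ± 19.4 CPM, SD, n = 4) came next, and their libraries overlapped with each other and, for the blood endothelium, with the LEC-like ones. Fibroblast-like cells as a whole held only 12.0 to 35.5 CPM. Among the fibroblast subsets the telocyte-like cells were highest at 45.7 ± 11.6 CPM (SD, n = 6) and the Adamdec1 fibroblast-like cells lowest at 15.1 ± 3.65 CPM (SD, n = 6). In the free RNA of each library, read from barcodes with at most 100 UMIs, Tgfb1 stood at 25.2 to 79.7 CPM, above the fibroblast-like level in all 6 libraries and below the LEC-like level in all 6.

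Tgfb2, the ligand without the integrin-binding motif, was highest in glia-like cells at 863, 836 and 675 CPM in proximal 1, proximal 2 and distal 1, the 3 libraries with enough of these cells. The lowest of these values lay above every LEC-like value. In LEC-like cells Tgfb2 measured 361, 341, 314, 328, 325 and 218 CPM in the library order given above, with the large intestine lowest, and the mean was 314 ± 49.7 CPM (SD, n = 6). The universal fibroblast-like (265 ± 57.2 CPM, SD, n = 6) and Ptn Scg2 fibroblast-like cells (258 ± 51.6 CPM, SD, n = 6) overlapped with the LEC-like cells and with each other. SEMF-like cells (103 ± 30.3 CPM, SD, n = 6) and telocyte-like cells (87.4 ± 18.4 CPM, SD, n = 6), both of which lie under the epithelium, had the lowest levels among the fibroblast subsets. In T cell or ILC-like, myeloid-like and B or plasma cell-like cells the means were 10.2, 10.0 and 5.51 CPM, against 110 to 213 CPM in the free RNA, so these low levels are at a place where the data cannot tell them from background.

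Tgfb3, which carries the motif, was shared by LEC-like cells (91.4 ± 30.3 CPM, SD, n = 6) and trophocyte-like cells (84.4 ± 27.1 CPM, SD, n = 6), CD81+ fibroblasts of the submucosa that support the stem cell niche. The LEC-like libraries held 114, 102, 122 and 103 CPM in the small intestine but 56.1 CPM in the cecum and 50.9 CPM in the large intestine. The trophocyte-like libraries held 114, 119, 81.8 and 80.2 CPM in the small intestine and 58.6 and 53.5 CPM in the cecum and large intestine. In both classes the large bowel values lay below all 4 small intestinal values. The trophocyte-like values of the cecum and large intestine came from only 140 and 168 cells. SEMF-like cells had the lowest Tgfb3 of the fibroblast subsets, 13.6 ± 5.49 CPM (SD, n = 6), and the other endothelium of the gut, the blood endothelial-like cells, held 3.48 ± 1.75 CPM (SD, n = 5).

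**Figure D2:**
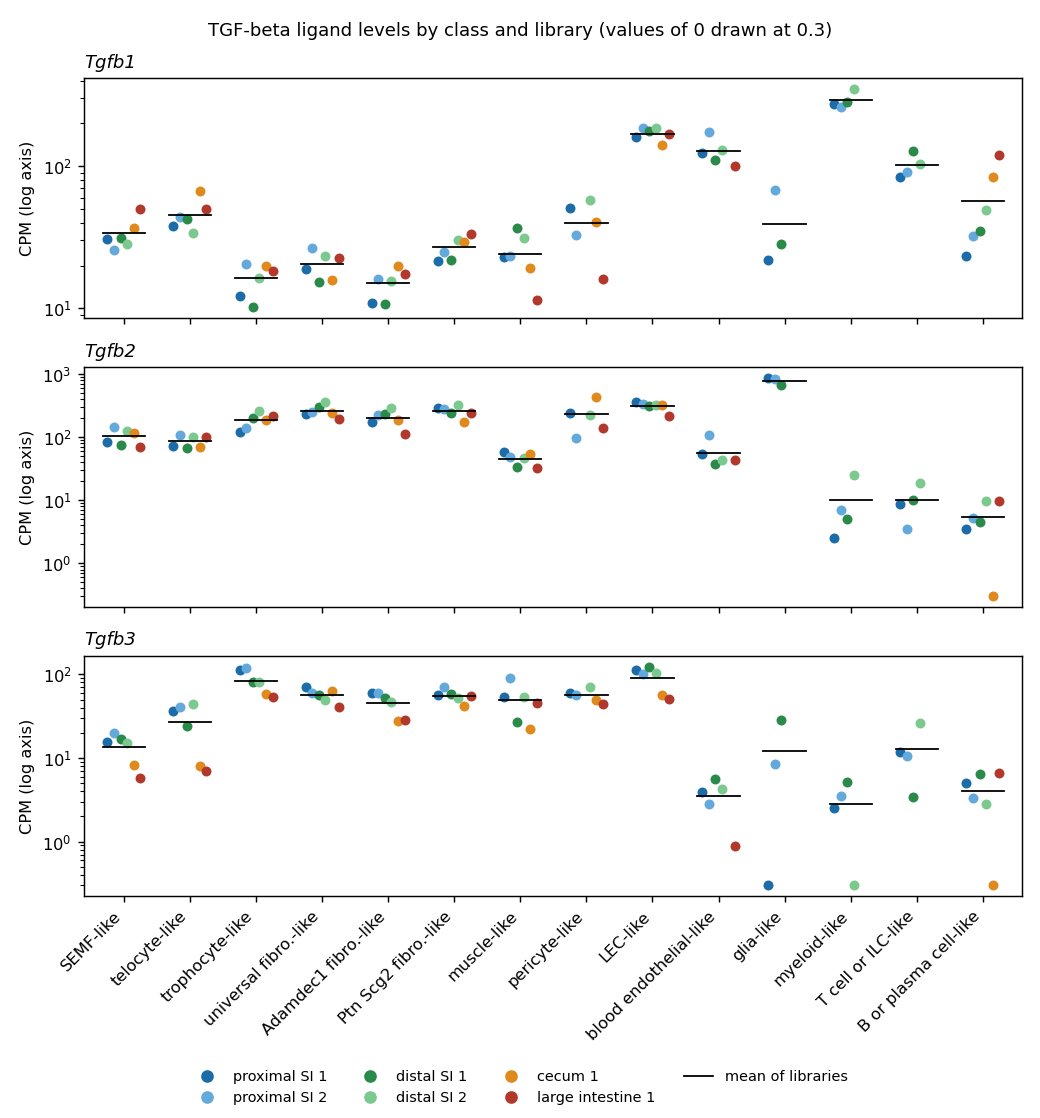
Levels of Tgfb1, Tgfb2 and Tgfb3 in each library, in CPM on a log axis, with 1 point per library and class, a line at the mean of the libraries and values of 0 drawn at 0.3. Tgfb3 in LEC-like cells sat at 50.9 to 56.1 CPM in the 2 large bowel libraries, below the 102 to 122 CPM of the 4 small intestinal libraries.

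Among the receptors, Tgfbr1, the type I kinase, was highest in myeloid-like cells with 405, 533, 510.0 and 449 CPM in the 4 small intestinal libraries. Muscle-like cells followed with 186 ± 20.2 CPM (SD, n = 6), below every myeloid-like library. LEC-like cells had the lowest level of all classes with more than 1 library, 30.8 ± 3.54 CPM (SD, n = 6). Tgfbr2, the type II kinase that binds the ligand first, had the opposite place in LEC-like cells. There it reached its highest level of any class, with 781, 872, 799, 888, 772 and 749 CPM and a mean of 810.3 ± 56.6 CPM (SD, n = 6), and every LEC-like library lay above every library of the next class, the universal fibroblast-like cells (564 ± 82.3 CPM, SD, n = 6). Pericyte-like cells were lowest among the non-epithelial classes at 115 ± 33.8 CPM (SD, n = 5). Tgfbr3, the co-receptor betaglycan, was a gene of fibroblasts and muscle. Its means were 1173 ± 199 CPM (SD, n = 6) in trophocyte-like, 1111 ± 504 CPM (SD, n = 6) in Adamdec1 fibroblast-like and 1050.0 ± 205 CPM (SD, n = 6) in muscle-like cells, 3 classes whose libraries overlapped. SEMF-like cells lay far lower at 395, 387, 278, 257, 152 and 73.7 CPM, with the cecum and large intestine below the other 4.

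The latent binders divided the mesenchyme further. Ltbp1, the binder that ties latent TGF-beta to fibronectin and fibrillin fibres, measured 1342, 1403, 1072, 1314, 354 and 220.3 CPM in SEMF-like cells, and 1008, 1124, 1195, 1163, 459 and 775 CPM in muscle-like cells. In both classes the 4 small intestinal libraries were above both large bowel libraries. Myeloid-like cells held 17.8, 10.4, 27.2 and 20.4 CPM of Ltbp1, against 533 to 590 CPM in the free RNA of the same libraries. Ltbp2, which binds fibrillin and elastic fibres and does not itself carry latent TGF-beta, was highest in SEMF-like and telocyte-like cells in the small intestine and low in every class of the large bowel. Its levels in SEMF-like cells were 117, 47.5, 112 and 76.7 CPM in the small intestine and 0.594 and 0.367 CPM in the cecum and large intestine, and in telocyte-like cells 67.6, 50.2, 33.3 and 38.9 CPM against 4.94 and 2.30 CPM. In the large bowel Ptn Scg2 fibroblast-like cells, at 2.64 and 9.35 CPM, and LEC-like cells, at 2.44 and 4.59 CPM, were above the SEMF-like cells. Over all libraries each of the other gated classes and the remaining fibroblast-like cells had a mean of 7.5 CPM or less. Ltbp3, a binder of all 3 ligands known from bone and teeth, was highest in Ptn Scg2 fibroblast-like (107 ± 29.4 CPM, SD, n = 6) and trophocyte-like cells (105 ± 10.5 CPM, SD, n = 6), and in endothelium it fell from 31.1 ± 1.91 CPM (SD, n = 6) in LEC-like to 7.14 ± 1.58 CPM (SD, n = 5) in blood endothelial-like cells. Ltbp4, a binder needed for elastic fibre assembly, was spread over the stromal classes. Its means were 988 ± 111 CPM (SD, n = 6) in universal fibroblast-like and 938 ± 227 CPM (SD, n = 6) in Adamdec1 fibroblast-like cells. The remaining fibroblast-like cells held 864 ± 123 CPM (SD, n = 6), LEC-like cells 853 ± 128 CPM (SD, n = 6) and trophocyte-like cells 847 ± 111 CPM (SD, n = 6), and the libraries of neighbouring classes overlapped. The leukocyte classes held means of 35.7 to 57.6 CPM of Ltbp4, against 945 to 1363 CPM in the free RNA.

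SEMF-like cells were next set against trophocyte-like cells within the 4 small intestinal libraries. SEMF-like cells held more Ltbp2, Ltbp1, Tgfb1 and Tgfbr1, and less Tgfb3, Tgfbr3, Ltbp3, Ltbp4 and Tgfb2. By edgeR's quasi-likelihood test with the library as a block, 4 of the 10 members were higher and 5 lower, while of all 15189 genes tested 27.6% were higher and 32.4% lower (60.0% in all), so the number of members called is not in itself a result about them. Ltbp2 was the member with the largest difference, 5.84 ± 0.38 on the log2 scale (SE), a 57.2-fold higher level with an edgeR adjusted p of 2.54e-05. The size was loosely set, since the log2 difference was 6.45 without proximal replicate 2, 5.49 without distal replicate 1 and 7.70 after subtraction of free RNA. In the trophocyte-like cells it held 0.895, 1.98, 0.850 and 1.32 CPM, below every SEMF-like library of the small intestine. Tgfb3 was lower by 7.30-fold, a log2 difference of -2.87 ± 0.11 (SE), with 15.4, 20.1, 17.1 and 15.2 CPM in SEMF-like and no value below 80.2 CPM in trophocyte-like cells. The free RNA of these libraries held 69.8 to 80.0 CPM of Tgfb3, above the SEMF-like levels, and the log2 difference was -3.63 to -2.60 in other settings. Tgfbr3 differed by -2.30 ± 0.09, Ltbp3 by -1.25 ± 0.07, Ltbp4 by -1.21 ± 0.09 and Tgfb2 by -1.02 ± 0.22 on the log2 scale (SE), and Ltbp1 by 0.67 ± 0.08 (SE). Tgfb1 was 0.67 ± 0.20 higher (SE, edgeR adjusted p = 0.0266), but its call was lost without proximal replicate 1 (adjusted p = 0.109), distal replicate 1 (0.0685) or distal replicate 2 (0.0566). Tgfbr1 was 0.19 ± 0.05 higher (SE, edgeR adjusted p = 0.0182), and this small difference lost its call without proximal replicate 1 (0.0748), proximal replicate 2 (0.0661) or distal replicate 2 (0.0623). Tgfbr2 did not pass (-0.30 ± 0.12, SE, edgeR adjusted p = 0.0636), though it did without proximal replicate 2 (0.0180).

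**Figure D3:**
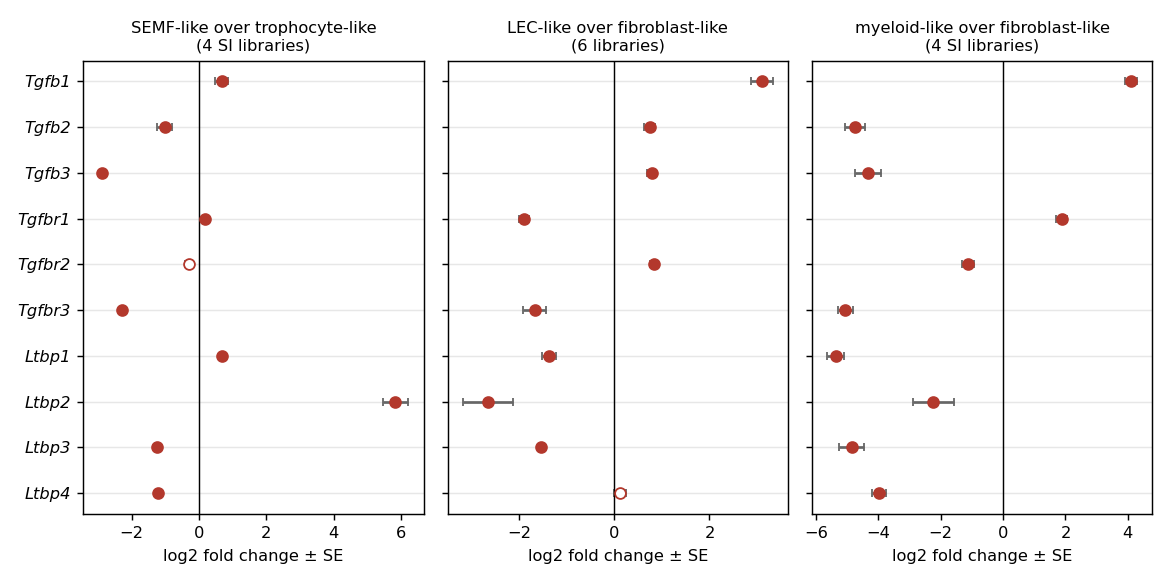
Log2 fold changes (horizontal axes, bars for the SE) of the 10 members in SEMF-like over trophocyte-like, LEC-like over fibroblast-like and myeloid-like over fibroblast-like cells, with filled points for edgeR adjusted p under 0.05 and open points otherwise. Ltbp2 stood at 5.84 in the first panel, and Tgfb1 at 3.10 and 4.10 in the others.

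The rest of the pathway was followed with 46 further genes, of which 43 were tested between SEMF-like and trophocyte-like cells. Of these 21 were higher and 16 lower (86.0% in all, where 60.0% of all genes passed), with a median log2 difference of 0.22 against -0.02 over all genes. Integrin subunits that activate latent TGF-beta were among the higher ones. Itgb3 was 9.81-fold higher, Itgb8 5.14-fold and their partner Itgav 2.31-fold, and Lrrc32 (GARP), the surface anchor of latent TGF-beta, was 3.31-fold higher. Fn1, the fibronectin that Ltbp1 binds, was 3.08-fold higher. On the lower side stood Fmod and Dcn, small proteoglycans that bind TGF-beta, and the known target Col1a1 (4.54-fold). Dcn was 6.81-fold lower, and Thbs1, a thrombospondin that can release the latent cytokine, was 3.28-fold lower. Fmod had 273 UMIs in the trophocyte-like and 0 in the SEMF-like cells of the small intestine and was thus at least 27.3-fold lower, taking 3 counts over the group as the floor (counting error only). Of the 6 known targets 2 were higher and 4 lower, so the targets did not move in 1 direction.

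Telocyte-like cells, Foxl1 and Sox6 expressing cells under the epithelium, were compared with SEMF-like cells over all 6 libraries. Of the 4042 telocyte-like cells 3005 came from the large intestine. The paper counts Foxl1+ telocytes among its SEMFs, and within that category it names telocyte clusters apart from SEMF clusters. Fewer genes differed, 12.8% of the 12861 tested with 6.49% higher and 6.32% lower, and among the members 3 were higher and 2 lower. Ltbp1 was lower in telocyte-like cells by a log2 difference of -0.91 ± 0.09 (SE, edgeR adjusted p = 0.00036), with 679.6, 728, 563, 858, 153 and 138 CPM. Each of these values was below the SEMF-like value of the same library, while the classes overlapped when regions were mixed. Tgfbr3 was higher by 0.67 ± 0.11 (SE, edgeR adjusted p = 0.00478) and Tgfbr2 by 0.44 ± 0.09 (SE, edgeR adjusted p = 0.0117). Ltbp3 (0.31 ± 0.08, SE) and Tgfbr1 (-0.27 ± 0.07, SE) passed at edgeR adjusted p of 0.0357 and 0.0421, but Tgfbr1 was not called without any 1 of the 6 libraries (adjusted p 0.0656 to 0.116), and Ltbp3 lost its call in 5 of the 6 left-out fits, keeping it without the large intestine. Ltbp2 did not pass over the 6 libraries (-0.33 ± 0.42, SE, edgeR adjusted p = 0.744), in which the classes stood in opposite orders. In 3 of the 4 small intestinal libraries, all but proximal replicate 2 (50.2 against 47.5 CPM), Ltbp2 was lower in telocyte-like cells, and in the cecum (4.94 against 0.594 CPM) and large intestine (2.30 against 0.367 CPM) it was higher, where the SEMF-like values rested on 4 and 2 UMIs and these cells held little Lrat and Frmd5. Tgfb3 was just outside the threshold (0.76 ± 0.22, SE, edgeR adjusted p = 0.0542) and inside it without the cecum (0.0237) or the large intestine (0.0298), and it passed in 8 of 9 other settings, among them limma-voom (0.0455) and DESeq2 (0.0238). Without the large intestine, which held most telocyte-like cells, Tgfb1 (0.55, edgeR adjusted p = 0.0160) and Tgfb2 (-0.39, edgeR adjusted p = 0.0386) also passed. Of 41 other pathway genes tested 5 were higher and 6 lower. Plau, the urokinase protease, was 10.3-fold higher and Tgfbi, a secreted TGF-beta target, 3.69-fold higher, whereas Itgb3 was 1.99-fold and Lrrc32 1.82-fold lower. Among these 4, Tgfbi kept its call whichever library was left out. The difference of Plau was 3.36 on the log2 scale with edgeR but 2.12 with limma-voom (adjusted p = 0.113) and 1.89 without the library block (0.457), and in the large intestine Plau was lower in telocyte-like (95.2 CPM) than in SEMF-like cells (114 CPM). Plau and Itgb3 lost their calls without any 1 of the 4 small intestinal libraries (adjusted p 0.0709 to 0.0903 and 0.0906 to 0.133) and Lrrc32 without 3 of them (0.0522 to 0.0647).

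Universal fibroblast-like cells, Pi16 and Cd34 expressing fibroblasts of the adventitia, differed from trophocyte-like cells in all 10 members, 6 higher and 4 lower, where 23.2% of 14260 genes passed, 12.3% higher and 10.9% lower. The differences were modest. Ltbp2 was the largest at 1.25 ± 0.37 (SE, edgeR adjusted p = 0.0377) but rested on levels of 1.61 to 4.78 CPM and lost its call without proximal replicate 1, distal replicate 1 or distal replicate 2 (adjusted p 0.119 to 0.163). Tgfb3 was lower by -0.76 ± 0.08 (SE) and Ltbp1 by -0.63 ± 0.04 (SE) on the log2 scale, whereas Tgfb2 was higher by 0.68 ± 0.08 (SE) and Tgfbr2 by 0.58 ± 0.06 (SE), each with an edgeR adjusted p of 0.000287 or less. Tgfb1 was 0.49 ± 0.09 and Ltbp4 0.30 ± 0.04 higher, and Tgfbr3 0.26 lower (-0.26 ± 0.05, SE). The calls of Tgfbr1 (0.16 ± 0.05, SE) and Ltbp3 (-0.21 ± 0.06, SE) were lost in 4 and 3 of the 4 left-out fits (adjusted p 0.0648 to 0.133 and 0.0534 to 0.112), Ltbp3 keeping its call without proximal replicate 2. Of 44 other pathway genes 16 were higher and 8 lower. The connective tissue growth factor Ccn2, a known target, was 4.61-fold higher and Cd109, a surface inhibitor of the receptor, 2.33-fold higher. Fbn2, a fibrillin, was 2.47-fold lower and Tgfbi 1.67-fold lower. Cd109 lost its call without proximal replicate 1 (0.136), proximal replicate 2 (0.0655) or, just outside the threshold, distal replicate 2.

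LEC-like cells, the lining of the lacteals and lymphatics, were compared with all fibroblast-like cells in the 6 libraries. They held more of all 3 ligands and of Tgfbr2, and less of Tgfbr1, Tgfbr3 and the binders Ltbp1, Ltbp2 and Ltbp3. That made 4 members higher and 5 lower, where 67.0% of 17775 genes passed the edgeR threshold, 31.4% higher and 35.5% lower. Tgfb1 differed most, 3.10 ± 0.23 on the log2 scale (SE, edgeR adjusted p = 5.44e-06), an 8.58-fold higher level in LEC-like cells. Tgfb2 was higher by 0.74 ± 0.12 (SE), Tgfb3 by 0.78 ± 0.10 (SE) and Tgfbr2 by 0.82 ± 0.08 (SE). The lower members were Tgfbr1 (-1.90 ± 0.11, SE), Tgfbr3 (-1.68 ± 0.25, SE), Ltbp3 (-1.54 ± 0.06, SE), Ltbp1 (-1.38 ± 0.15, SE) and Ltbp2 (-2.66 ± 0.52, SE). Ltbp4 did not pass (0.12 ± 0.12, SE, edgeR adjusted p = 0.399). These 9 calls were kept whichever library was left out. In the large bowel alone Ltbp2 was not lower, with 2.44 and 4.59 CPM in LEC-like cells (3 and 10 UMIs) and 1.13 and 2.86 CPM in fibroblast-like cells of the cecum and large intestine. Of the 46 other pathway genes 9 were higher and 26 lower, with a median log2 difference of -0.76 against -0.05 over all genes. Higher were Cd109 (24.5-fold), Nrros (23.5-fold), an anchor of latent TGF-beta known from myeloid cells, Plau (10.8-fold), the endothelial co-receptor Eng (4.2-fold) and Itgav (3.35-fold). The call of Plau was lost without proximal replicate 2, just outside the threshold. Lower were the collagens Col1a1 (40.9-fold) and Col3a1 (34.3-fold), Dcn (37.4-fold), the protease Htra1 (34.9-fold) and the matrix protease Mmp2 (31.6-fold).

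Blood endothelial-like cells, the other endothelium in the gate, were set against LEC-like cells in the 5 libraries in which both had at least 20 cells, all but the cecum. Ltbp2 was too low to be tested, and of the 9 members tested 1 was higher and 6 lower, where 55.3% of 11113 genes passed, 28.2% higher and 27.0% lower. Tgfb3 was lower by a log2 difference of -4.72 ± 0.15 (SE, edgeR adjusted p = 7.42e-09), a 26.4-fold difference, and Tgfb2 by -2.37 ± 0.18 (SE, edgeR adjusted p = 2.65e-06). In blood endothelial-like cells Tgfb3 measured 3.90, 2.79, 5.57, 4.23 and 0.886 CPM, far under each LEC-like library. These levels also lay under the 30.4 to 80.0 CPM of Tgfb3 in the free RNA of the same libraries. The size of the Tgfb3 difference is thus loosely set, and it reached -12.9 in another setting. Tgfb1 differed far less (-0.33 ± 0.10, SE, edgeR adjusted p = 0.0175) and lost its call without distal replicate 1 (0.0599) or distal replicate 2 (0.0722). Ltbp3 was lower by -2.0 ± 0.15 (SE), Ltbp4 by -0.96 ± 0.08 (SE) and Tgfbr2 by -0.57 ± 0.09 (SE). The blood endothelial-like mean of Ltbp3, 7.14 CPM, was below the 98.3 to 125 CPM in the free RNA, and its difference reached -10.7 in another setting. Tgfbr1 was the member that was higher in blood endothelium, by 1.53 ± 0.11 on the log2 scale (SE, edgeR adjusted p = 1.97e-06). Ltbp1 (-0.36 ± 0.20, SE, edgeR adjusted p = 0.149) and Tgfbr3 (0.03 ± 0.10, SE, edgeR adjusted p = 0.824) did not pass. Of 40 other pathway genes 18 were higher and 13 lower. The inhibitory Smad7 was 30.0-fold and the plasminogen activator Plat 9.81-fold higher, and Plau was 11.5-fold and the membrane protease Mmp14 9.70-fold lower.

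The contractile and immune classes were small, and each was compared with the fibroblast-like cells of the same libraries. In myeloid-like cells Tgfb1 was 4.10 ± 0.20 higher on the log2 scale (SE), a 17.1-fold difference, and Tgfbr1 was 1.87 ± 0.18 higher (SE), while the other 8 members were lower, where 45.2% of 17006 genes passed, 17.7% higher and 27.5% lower. Of these, Ltbp2 rested on 0 to 5.09 CPM and lost its call with a looser marker gate (-0.79 in place of -2.24, edgeR adjusted p = 0.169). In each of the 4 libraries the free RNA held more of each binder than the myeloid-like cells did. Muscle-like cells held more Tgfbr1 (0.57 ± 0.11, SE) and Ltbp1 (0.56 ± 0.15, SE, edgeR adjusted p = 0.0139) and less of 5 members, where 33.5% of 16451 genes passed, 13.2% higher and 20.3% lower. Tgfb2 (-2.14 ± 0.17, SE) and Tgfbr2 (-1.44 ± 0.13, SE) were lowered well beyond the library spread there. Tgfb3 did not pass in muscle-like cells (-0.19, edgeR adjusted p = 0.571) but did with a stricter cell filter (-1.29, adjusted p = 0.000890). Pericyte-like cells had no member higher and 7 lower, where 29.1% of 16344 genes passed, 11.2% higher and 17.9% lower. One of the 7 was Ltbp2, which had 1 UMI in pericyte-like cells over the 5 libraries, so no size is given for it. Of the others, the largest differences were those of Ltbp4 (-2.38 ± 0.16, SE), Tgfbr3 (-2.20 ± 0.17, SE) and Tgfbr2 (-2.16 ± 0.16, SE). The ligands did not pass in pericyte-like cells, with log2 differences of 0.54 ± 0.36 (Tgfb1), 0.04 ± 0.22 (Tgfb2) and 0.12 ± 0.21 (Tgfb3, SE), although Tgfb1 passed without the large intestine (1.10, edgeR adjusted p = 0.00414). Of the other pathway genes, 7 were higher and 28 lower of 45 in myeloid-like, 9 and 20 of 46 in muscle-like, and 6 and 21 of 45 in pericyte-like cells. The gelatinase Mmp9 and Nrros led the higher ones in myeloid-like cells, Plau (12.9-fold) and Itgb3 (3.71-fold) in muscle-like cells, and Ccn2 (5.65-fold) and Nrros (5.25-fold) in pericyte-like cells. The pericyte-like call of Nrros was lost without proximal replicate 2 (adjusted p = 0.0680) or distal replicate 2 (0.547). Fbn1 and Dcn led the lower genes in myeloid-like cells, Dcn (12.8-fold) and Plat (7.08-fold) in muscle-like cells, and Itgb8 (23.2-fold) and Dcn (21.0-fold) in pericyte-like cells.

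Within the small intestine, distal and proximal libraries were compared, 2 against 2. None of the members passed the edgeR threshold in trophocyte-like, SEMF-like or LEC-like cells, where 0.636% (0.346% higher and 0.290% lower), 0 and 0% of all genes did. In the SEMF-like and LEC-like cells, where edgeR called no gene at all, 450 and 483 genes had an unadjusted p under 0.05, and DESeq2 called 29 and 24. The member closest to the threshold was Tgfb2 in trophocyte-like cells. It measured 120.3 and 138 CPM in the proximal and 203 and 259.8 CPM in the distal libraries, so the regions did not overlap, and it was 0.83 ± 0.16 higher on the log2 scale (SE, edgeR adjusted p = 0.101). DESeq2 called it (adjusted p = 0.000646), as did edgeR without distal replicate 1 (0.0407) and edgeR with no filter on low counts (0.000325), so its call depends on the settings. Tgfb3 in trophocyte-like cells measured 114 and 119 CPM in the proximal and 81.8 and 80.2 CPM in the distal libraries, again without overlap, a log2 difference of -0.52 ± 0.13 (SE, edgeR adjusted p = 0.225). Libraries with the same replicate number carried the same set of 3 hashtags, and with that number as a block edgeR called Tgfb2 (adjusted p = 0.000247) and Tgfb3 (0.0388) in trophocyte-like cells. None of the other pathway genes passed in any of the 3 classes.

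Large bowel libraries, the cecum and the large intestine, were then compared with the 4 small intestinal ones. Ltbp1 was lower in the large bowel in both classes compared, and Tgfb3 too. In SEMF-like cells 1 member was higher and 4 lower, where 38.3% of 14365 genes passed, 20.9% higher and 17.5% lower. In LEC-like cells none was higher and 2 were lower, where 20.8% of 13971 genes passed, 9.72% higher and 11.0% lower. Region cannot be told apart from library here, since each large bowel region was 1 library, and both carried the hashtag set of replicate 1 of the small intestine.

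**Figure D4:**
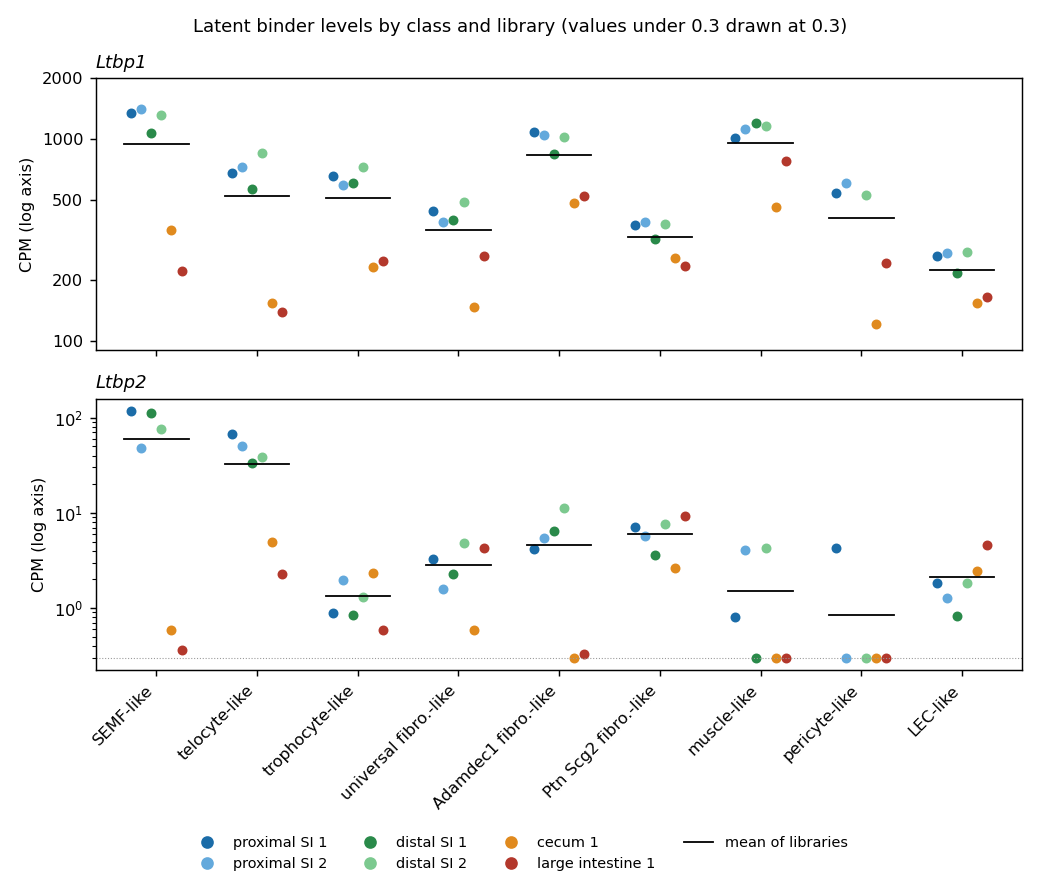
Levels of Ltbp1 and Ltbp2 in each library and class, in CPM on log axes, with a line at the mean of the libraries and values under 0.3 drawn at 0.3. Ltbp1 in SEMF-like cells sat at 1072 to 1403 CPM in the 4 small intestinal libraries and at 354 and 220.3 CPM in the cecum and large intestine, and Ltbp2 fell to 0.594 and 0.367 CPM there.

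Ltbp1 in SEMF-like cells was lower in the large bowel by a log2 difference of -1.97 ± 0.25 (SE, edgeR adjusted p = 0.00144). In LEC-like cells it measured 263, 271, 216 and 276 CPM in the small intestine and 154 and 164 CPM in the cecum and large intestine, without overlap, a log2 difference of -0.71 ± 0.14 (SE, edgeR adjusted p = 0.00807). The LEC-like call was lost without the cecum (-0.72, adjusted p = 0.0531) and among the libraries of 1 hashtag set (-0.58, adjusted p = 0.0531), with the direction kept. Tgfb3 was lower by -1.08 ± 0.22 in SEMF-like (SE, edgeR adjusted p = 0.00835) and by -1.07 ± 0.14 in LEC-like cells (SE, edgeR adjusted p = 0.00105), and the LEC-like call was kept whichever library was left out. Within 1 hashtag set the SEMF-like difference of Tgfb3 was -1.04 (adjusted p = 0.0535). Tgfbr3 was lower in SEMF-like cells by -1.35 ± 0.32 (SE, edgeR adjusted p = 0.0144), but not past the threshold without the large intestine (-0.93, adjusted p = 0.0527) or with a looser marker gate (-1.09, adjusted p = 0.0545). Tgfb1 was higher in SEMF-like cells by 0.76 ± 0.16 (SE, edgeR adjusted p = 0.00936), again not past it without the large intestine (0.54, adjusted p = 0.0551) or within 1 hashtag set (0.64, adjusted p = 0.0863). Ltbp2 in SEMF-like cells came from 2944 UMIs in the small intestine and 6 in the large bowel, a ratio of 164 (95% interval 75.1 to 446, counting error only). Lrat and Frmd5, markers of the SEMF-like gate, fell with the members in the large bowel (values given above), and the part of that shift in these results was not tested.

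The same regional comparison was then made in 5 more fibroblast classes, chosen after the SEMF-like values had been seen. Ltbp1 was lower and past the edgeR threshold in all 7 classes, with log2 differences from -2.20 ± 0.21 (SE) in telocyte-like to -0.45 ± 0.14 (SE) in Ptn Scg2 fibroblast-like cells. The telocyte-like class held 68 to 153 cells per small intestinal library, where the cecum had 639 and the large intestine library 3005. Its gating marker Bmp5 was at 1347 to 2201 CPM in all 6 libraries. The paper places a telocyte cluster mostly in the large intestine, with none of it in the small intestine. How the telocyte-like cells of each region divide over such clusters was not tested. Trophocyte-like cells held 653, 592, 606 and 728 CPM in the small intestine and 231 and 248 CPM in the large bowel, a log2 difference of -1.39 ± 0.17 (SE, edgeR adjusted p = 0.00267). In Ptn Scg2 fibroblast-like cells the call was lost in 5 of the 6 left-out fits and kept only without distal replicate 1, and in universal fibroblast-like cells it was lost without proximal replicate 1, distal replicate 2 or the cecum (highest adjusted p 0.172 and 0.0940). Within 1 hashtag set neither passed (0.218 and 0.102). The call in telocyte-like, trophocyte-like and Adamdec1 fibroblast-like cells was kept whichever library was left out and within 1 hashtag set. Ltbp1 also fell in the free RNA, from 533 to 590 CPM in the small intestine to 251 CPM in the cecum and 231 CPM in the large intestine. Its part in the cell levels was not tested beyond a subtraction of free RNA in SEMF-like and LEC-like cells, after which Ltbp1 still passed as lower in both. Tgfb3 and Tgfbr3 lay below 0 in all 7 classes and passed in 4 each, Tgfbr3 in Ptn Scg2 fibroblast-like cells not without the large intestine (0.0753) or within 1 hashtag set (0.0702). Free RNA of Tgfb3 went from 69.8 to 80.0 CPM in the small intestine to 50.3 (cecum) and 30.4 CPM (large intestine). Tgfbr3 fell there from 598 to 980 CPM to 447 and 304 CPM. Large bowel Tgfb3 was below that in SEMF-like (5.70 to 8.32 CPM) and telocyte-like cells (6.95 to 8.08 CPM). With free RNA subtracted, Tgfb3 still passed in SEMF-like and LEC-like cells and Tgfbr3 in SEMF-like cells. The part of free RNA was not tested further. Ltbp2 passed, as lower, in 3 of 7, namely SEMF-like, telocyte-like and Adamdec1 fibroblast-like cells. Ptn Scg2 fibroblast-like cells went the other way for a pair of binders, with Ltbp3 higher by 0.83 ± 0.11 (SE, edgeR adjusted p = 0.00260) and Ltbp4 by 0.73 ± 0.16 (SE, edgeR adjusted p = 0.0123), the latter not past the threshold without the cecum (0.0730) or within 1 hashtag set (0.126). Ltbp3 there measured 84.9, 94.4, 85.7 and 87.5 CPM in the small intestine and 144 and 145 CPM in the cecum and large intestine, without overlap, and its call held in each left-out fit and within 1 hashtag set (adjusted p = 0.0343). In Adamdec1 fibroblast-like cells 8 of the 10 members were lower, where 31.4% of all genes passed, 15.4% higher and 15.9% lower. Of these 8 calls, those of Ltbp3 and Ltbp4 held in 2 of the 6 left-out fits each, and that of Tgfbr3 was lost without the cecum (adjusted p = 0.0584). Within 1 hashtag set Tgfbr1 (0.0523), Ltbp3 (0.0800) and Ltbp4 (0.123) did not pass, and Tgfb1 passed as higher (0.81, adjusted p = 0.0348). Telocyte-like cells had 4 members lower and none higher, where 19.1% of genes passed, 9.68% higher and 9.45% lower. In trophocyte-like cells 1 was lower, where 8.15% of genes passed, 3.75% higher and 4.40% lower, and in universal fibroblast-like cells 1 was lower, where 14.0% passed, 6.93% higher and 7.07% lower. Ptn Scg2 fibroblast-like cells had 2 higher and 2 lower, where 28.7% of genes passed, 15.7% higher and 13.0% lower.

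**Figure D5:**
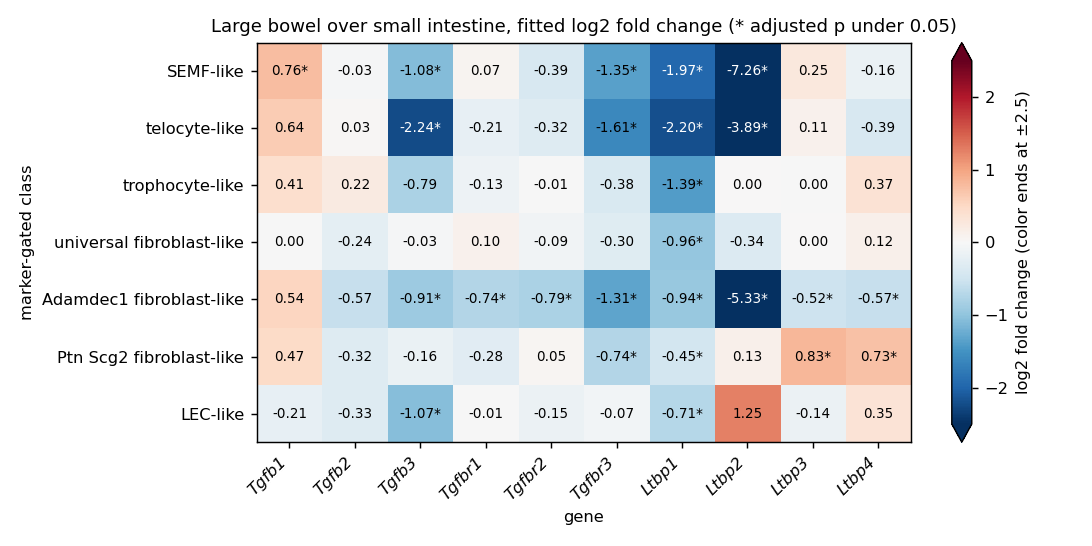
Fitted log2 fold changes of the 10 members (columns) in large bowel over small intestinal libraries, by class (rows), with red for higher, blue for lower and an asterisk for edgeR adjusted p under 0.05. Ltbp1 was below 0 in all 7 classes, from -2.20 to -0.45, whereas Ltbp3 and Ltbp4 were above 0 in Ptn Scg2 fibroblast-like cells (0.83 and 0.73).

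Of the other pathway genes, 10 were higher and 7 lower of 43 in the SEMF-like cells of the large bowel. That is 39.5%, near the 38.3% of all genes that passed there (20.9% higher and 17.5% lower). In the LEC-like cells 8 were higher and 11 lower of 43, or 44.2%, where 20.8% of all genes passed (9.72% higher and 11.0% lower). Cd109 and Plau rose in SEMF-like cells. Cd109 went from 0 to 0.578 CPM in the small intestinal libraries to 10.1 CPM in the cecum and 67.8 CPM in the large intestine, and Plau from 1.29 to 3.00 CPM to 29.7 and 114 CPM. Both are also genes of telocyte-like cells of the large bowel (Cd109 at 30.3 and 33.8 CPM, Plau at 162 and 95.2 CPM). The integrin subunits Itgb3 (4.15-fold) and Itgb8 (3.20-fold) were lower in SEMF-like cells, Itgb8 losing its call without the cecum (adjusted p = 0.0591) or within 1 hashtag set (0.0847). In LEC-like cells the target Tgfbi was 12.1-fold higher, Thbs1 was 2.79-fold lower, and Fbn2 was 10.4-fold lower with a call that was lost without the cecum (adjusted p = 0.152) or the large intestine (0.183) and with limma-voom (0.235). With a looser marker gate the log2 difference of Fbn2 was -0.58 (edgeR adjusted p = 0.576) in place of -3.38.

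Whether the regional difference itself differed between LEC-like and SEMF-like cells was tested as an interaction, in which 14.7% of 13506 genes passed, 6.65% higher and 8.04% lower. For the members 3 were higher and 1 lower. Ltbp1 fell more in SEMF-like than in LEC-like cells (difference of log2 differences 1.37 ± 0.20, SE, edgeR adjusted p = 0.00419), a call that was kept whichever library was left out. Ltbp2 (8.32 ± 1.03, SE, edgeR adjusted p = 0.00250) and Tgfbr3 (1.43 ± 0.25, SE, edgeR adjusted p = 0.00999) also differed, with a fall in SEMF-like cells. In LEC-like cells their log2 differences were 1.25 ± 0.50 and -0.07 ± 0.15 (SE), which did not pass. Tgfb1 (-0.91 ± 0.17, SE, edgeR adjusted p = 0.0110) differed in the other direction. It rose in SEMF-like cells, against a log2 difference of -0.21 ± 0.12 (SE) in LEC-like cells that did not pass. Without the large intestine these 3 fell outside the threshold (adjusted p = 0.0957, 0.0921 and 0.0855). For Tgfb3 the difference between the classes did not pass (0.12 ± 0.22, SE, edgeR adjusted p = 0.767). Of 43 other pathway genes 7 were higher and 9 lower. Plau (-6.48 ± 0.48, SE) and Cd109 (-6.24 ± 0.68, SE) differed most, since both rose in SEMF-like cells, and Itgb8 (3.18 ± 0.86, SE) and Tgfbi (2.99 ± 0.61, SE) led in the other direction. Itgb8 passed only narrowly (edgeR adjusted p = 0.0433) and lost its call without any 1 of the 4 small intestinal libraries or the cecum (0.0575 to 0.15).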

How the data were processed

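The authors aligned the 10x 3′ reads of the sorted cells to mm39 with tdTomato added and deposited raw UMI counts of every barcode, with hashtag counts. Cell Ranger is given as version 8.1.0 in the methods and as 8.0.1 in the matrix headers. A cell was kept if it had 1000 to 7500 genes, 2500 to 40000 UMIs and a mitochondrial share under 10%. Cells with several hashtags, 8.39 to 13.8% per library, were removed as doublets, and no doublet caller was run, so doublets within 1 hashtag remain. A lineage needed UMIs of 50% of its markers with a margin of 25 percentage points, and a fibroblast subset a score of 0.5 with a margin of 0.25. These limits were set after marker scores had been seen, and 16428 of 69171 fibroblast-like cells (23.8%) lay within 0.1 of a limit. UMIs were summed per library and class (at least 20 cells). Sums were tested with edgeR 4.0.16 in R 4.3.3 (quasi-likelihood, filterByExpr minimum count 10, TMM, Benjamini-Hochberg adjusted p under 0.05). This test draws the spread of each gene toward a value shared by many genes. A p-value or SE thus does not rest on the libraries of that gene alone. Classes were compared with the library blocked, regions without a block. As SE of a log2 difference, the difference over the root of its F statistic was taken. Scripts were tested on simulated data. limma 3.58.1, DESeq2 1.42.0, other filters and gates, subtraction of free RNA (10% of the UMIs of each class and library) and left-out libraries were the alternatives. Gene places are from GENCODE vM39 on GRCm39. The members and lists were chosen with earlier results of these data known. Beside the members, a list of 46 pathway genes was counted, and up to 5 per direction with the largest change past the threshold were named for SEMF-like against trophocyte-like and LEC-like against fibroblast-like cells, and up to 2 elsewhere, except 1 gene that is not reported here. Counting does not separate Tgfb2 from overlapping antisense transcripts beyond the strand setting of Cell Ranger.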

Additional observations from a re-analysis of the deposited data

Results flagged for a closer look

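For 4 members the difference between large bowel and small intestine itself differed between LEC-like and SEMF-like cells in the edgeR interaction test, in which 14.7% of 13506 genes passed. The difference of log2 differences, LEC-like minus SEMF-like, was 1.43 for Tgfbr3, -0.91 for Tgfb1, 8.32 for Ltbp2 and 1.37 for Ltbp1. Without the large intestine, which left the cecum as the only large bowel library, it was 0.88 for Tgfbr3, -0.90 for Tgfb1 and 7.38 for Ltbp2. The value of Ltbp2 rests on 6 UMIs in the SEMF-like cells of the large bowel and on LEC-like levels of 0.833 to 4.59 CPM. The SEMF-like cells of the large bowel had Lrat at 1.19 to 1.29 CPM, and the part of that shift in these differences was not tested.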

How the results depend on the processing

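No member and no named gene changed direction with a call under any alternative. Of the recomputed log2 differences, 2587 kept their side of the threshold, 118 lost the call and 30 gained it, and of the recomputed levels 33 moved by more than the spread between libraries and 1067 by less. The class with the highest level stayed the same for 6 to 10 of the members when 1 library was left out, the fewest without the large intestine, where Tgfbr3 and Ltbp4 were highest in Adamdec1 fibroblast-like, Ltbp1 in SEMF-like and Ltbp3 in trophocyte-like cells. Tgfb3 was highest in trophocyte-like cells with the stricter gate, Tgfbr3 in muscle-like and Ltbp3 in trophocyte-like cells with the stricter cell filter, and Ltbp1 in SEMF-like cells with that filter, either gate or free RNA subtracted. Without the library block, telocyte-like against SEMF-like cells gave 540 genes in place of 1648, with the calls on Ltbp1, Tgfbr1, Tgfbr2, Tgfbr3 and Ltbp3 all lost, and universal fibroblast-like against trophocyte-like cells 1008 in place of 3304, with the calls on Tgfb1, Tgfb2, Tgfbr1, Tgfbr3, Ltbp2, Ltbp3 and Ltbp4 lost (adjusted p 0.0917 to 0.406). The muscle-like calls of Ltbp1 (edgeR adjusted p = 0.284) and Ltbp2 (0.0664) and the pericyte-like call of Ltbp1 (0.254) were lost without the block too. So were those of Tgfb1 in blood endothelial-like against LEC-like cells (0.0848) and Tgfbr1 in SEMF-like against trophocyte-like cells (0.161). Between distal and proximal libraries, trophocyte-like cells gave 304 genes with DESeq2 and 644 with no filter on low counts in place of 103, SEMF-like cells 29 and 193 in place of 0, and LEC-like cells 24 and 154 in place of 0, with 1 when cells with several hashtags were kept. Libraries with the same replicate number deviated together at r = 0.27, 0.30 and 0.11 over genes in these 3 classes, but the labels give no shared source, and with the replicate block 758, 255 and 56 genes passed, among them Tgfb2 (adjusted p = 0.000247) and Tgfb3 (0.0388) in trophocyte-like cells. Within 1 hashtag set the large bowel comparison gave 2189 genes in place of 5506 in SEMF-like and 1585 in place of 2900 in LEC-like cells. Over all 6 libraries, the other fibroblast classes gave 1971 (telocyte-like), 1306 (trophocyte-like), 1856 (universal fibroblast-like), 4738 (Adamdec1 fibroblast-like) and 3857 (Ptn Scg2 fibroblast-like). Leaving out 1 library each moved the counts to 1003 to 1820 (telocyte-like against SEMF-like), 3399 to 6195 (large bowel, SEMF-like), 1093 to 3752 (large bowel, LEC-like), 737 to 1799 (interaction), 108 to 268 (distal, trophocyte-like), 0 to 136 (distal, SEMF-like) and 0 to 81 (distal, LEC-like). With free RNA subtracted, Ltbp1 stayed lower and called in the large bowel in SEMF-like and LEC-like cells.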

Other observations

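The genes whose levels ran most like those of a member were listed over 82 sums of library and class, among 10178 genes, as Pearson's r of log2(CPM + 1). The sums share libraries and classes, so r is a description. Tgfbr3 ran most like another member, Ltbp1 (r = 0.89), followed by the elastin gene Eln (0.88), and Eln was also among the genes nearest to Ltbp4 (0.91), whose nearest gene was Zfpm2 (0.93). Ltbp1 ran most like Ston1 (0.92), Ltbp3 like Fkbp14 (0.93) and Reck (0.92), an inhibitor of matrix proteases. Among the ligands, Tgfb1 ran most like Ptbp3 and Abi3 (both 0.82), Tgfb2 like Eda (0.88) and Tgfb3 like Adamtsl1 (0.83) and Tnxb (0.81), an extracellular matrix gene. For Ltbp2 the nearest genes were Sertm1 (0.82) and Tacr1 (0.81), the receptor of substance P. The receptors Tgfbr1 and Tgfbr2 had looser neighbours, Rcbtb2 (0.74) and Cd47 (0.79).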
